A study of Mus musculus with 4 samples.

Results

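The genes described here set the pace of the G1 phase of the cell cycle in early T lineage progenitors (ETP), the most immature T lineage cells of the thymus. They are the 3 D cyclins (*Ccnd1*, *Ccnd2* and *Ccnd3*), the 2 kinases that bind them (*Cdk4* and *Cdk6*) and 5 inhibitors of these kinases (*Cdkn1a*, *Cdkn1b*, *Cdkn2a*, *Cdkn2c* and *Cdkn2d*). The members are a list of gene symbols, drawn up with earlier results of these data known. All 10 members had a row among the 23361 genes of the deposited table. Of these, 9 passed the filter on low values, which kept a gene if 2 or more of the 4 libraries reached an FPKM (fragments scaled to transcript length and library size) of 1, and left 10080 genes to test. *Cdkn2a* did not pass it.

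The study asked how gene expression in ETP changes with age. RNA was sequenced from ETP of old mice (72 weeks, 2 libraries) and of young adult mice (4 to 6 weeks, 2 libraries). All were female C57BL6 mice with no genetic change or treatment, and the sort took thymocytes that were Lin- CD44+ CD25- CD117+. The deposited table names the old condition 20m, whereas the labels give its age in weeks, and neither states how many animals gave each library. Tests over these libraries therefore measure the spread between samples, which may be technical.

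In a dividing cell, growth signals raise the D cyclins, which activate CDK4 and CDK6. These kinases phosphorylate the retinoblastoma protein and its relatives, and E2F factors are then free to switch on the genes of S phase. The INK4 proteins (from *Cdkn2a*, *Cdkn2b*, *Cdkn2c* and *Cdkn2d*) bind CDK4 and CDK6 and keep the D cyclins off. The Cip and Kip proteins (from *Cdkn1a*, *Cdkn1b* and *Cdkn1c*) act mainly on cyclin E and cyclin A complexes with CDK2. *Cdkn2a* and *Cdkn1a* are widely used as marks of senescence, in which cells leave the cycle for good.

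Promoters of *Cdk4*, *Cdkn2c* and *Cdkn2a* are shown for context, with the reason beside each. RefSeq (GRCm38.p6) gave 12 promoters for 8 of the 10 members, each 300 bases long from 250 bases before to 50 after a transcription start. *Ccnd1* and *Ccnd2* had none in the table. They were searched on both strands for 3 motifs, and capitals mark the matches. The Sp1 box GGGCGG stood in 9 of the 12 and in 35.7% of all 32851 promoters. The E-box CACGTG, the sequence that MYC and MAX bind, stood in 3 of the 12 and in 7.15% of all. An E2F site, TTTCCCGC or TTTGGCGC, stood in 1 of the 12 and in 1.56% of all. Where matches touch or overlap, the capitals run together.

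*Cdk4* (chr10:127063285-127063584, plus strand), shown for its 4 E-boxes, a number that 0.0244% of all promoters reach, beside 3 Sp1 boxes: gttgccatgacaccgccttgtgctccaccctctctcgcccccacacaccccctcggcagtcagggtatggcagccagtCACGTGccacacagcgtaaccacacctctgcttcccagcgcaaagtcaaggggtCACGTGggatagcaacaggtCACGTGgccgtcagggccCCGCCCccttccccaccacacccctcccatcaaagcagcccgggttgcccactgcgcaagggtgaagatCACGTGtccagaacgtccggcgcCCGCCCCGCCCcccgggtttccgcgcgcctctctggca

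*Cdkn2c*, upstream start (chr4:109666707-109667006, minus strand), shown because this gene had the largest fold difference of the members, with 4 Sp1 boxes: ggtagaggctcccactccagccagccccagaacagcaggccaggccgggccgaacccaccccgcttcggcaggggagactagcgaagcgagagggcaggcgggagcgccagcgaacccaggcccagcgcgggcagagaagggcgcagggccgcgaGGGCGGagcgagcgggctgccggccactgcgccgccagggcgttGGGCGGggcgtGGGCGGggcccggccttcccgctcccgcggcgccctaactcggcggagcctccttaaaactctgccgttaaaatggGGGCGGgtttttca

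*Cdkn2c*, downstream start (chr4:109665323-109665622, minus strand), with 1 E-box and no Sp1 box: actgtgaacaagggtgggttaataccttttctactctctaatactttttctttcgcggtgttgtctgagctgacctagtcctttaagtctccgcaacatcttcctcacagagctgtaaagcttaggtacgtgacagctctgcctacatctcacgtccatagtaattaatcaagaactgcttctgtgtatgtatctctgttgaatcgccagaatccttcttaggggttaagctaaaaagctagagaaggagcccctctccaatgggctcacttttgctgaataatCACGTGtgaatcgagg

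*Cdkn2a*, start of the Arf transcript (chr4:89294570-89294869, minus strand), shown because the gene was listed at 0, with 3 Sp1 boxes and the only E2F site among the 12 promoters: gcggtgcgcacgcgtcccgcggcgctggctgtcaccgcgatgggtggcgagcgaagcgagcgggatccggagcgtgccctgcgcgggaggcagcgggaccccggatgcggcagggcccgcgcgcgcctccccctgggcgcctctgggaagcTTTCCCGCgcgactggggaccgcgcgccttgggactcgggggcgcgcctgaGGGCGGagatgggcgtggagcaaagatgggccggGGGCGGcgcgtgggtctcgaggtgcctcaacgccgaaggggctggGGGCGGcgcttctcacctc

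*Cdkn2a*, start of the Ink4a transcript (chr4:89282143-89282442, minus strand), with 1 Sp1 box: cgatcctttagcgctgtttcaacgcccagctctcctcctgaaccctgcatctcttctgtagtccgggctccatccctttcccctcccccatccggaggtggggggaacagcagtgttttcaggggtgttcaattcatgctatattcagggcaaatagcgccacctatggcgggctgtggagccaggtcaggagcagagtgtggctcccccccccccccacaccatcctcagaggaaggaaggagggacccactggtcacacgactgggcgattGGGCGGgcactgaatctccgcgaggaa

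The 2 starts of *Cdkn2c* differed in base composition as well as in motifs, with 73.3% G and C at the upstream and 44.0% at the downstream start. A match is a run of letters and says nothing of whether a factor was bound in ETP.

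The libraries differed in ways that bear on the values below. Replicate 1 was the deeper library of each age, with 11816480 fragments in old and 16658865 in young ETP, against 4839341 in old and 6414917 in young replicate 2. Levels are given as CPM, in which TMM brought the counts to a common library size, on which 3 counts, the most that a count of 0 allows, stood at 0.249 to 0.654 CPM. The 10 genes of ETP identity and gate summed to 3796 and 3121 CPM in old and 3928 and 4206 CPM in young ETP (replicates 1 and 2), among them *Kit*, which encodes CD117, at 936 and 945 CPM in old and 764 and 1096 CPM in young ETP. The 12 markers of conventional dendritic cells summed to 5063 and 17014 CPM in old and to 955 and 1471 CPM in young ETP. None of the 12 was at 0 in every library. Both old libraries lay above both young ones for each of the 11 that were tested, a pattern in 16.1% of all tested genes. A gene could pass the filter through the old libraries alone. The untested marker, *Cd209a*, overlapped between ages, at 0.914 and 24.2 CPM in old and 0.702 and 1.92 CPM in young ETP. The lineage antibodies that the methods name were against B, T, NK, myeloid and erythroid antigens, among them CD8α, CD11b and B220 but not CD11c. The sort also required CD117. Which cells gave the marker RNA was not tested. Summed markers were 77.0 and 113 CPM in old and 121 and 143 CPM in young ETP for plasmacytoid dendritic cells (6 genes), 352 and 410 against 274 and 330 CPM for NK and innate lymphoid cells (12 genes), 1513 and 740 against 2064 and 1358 CPM for myeloid cells (8 genes), and 51.5 and 96.3 against 44.7 and 48.1 CPM for later thymocytes and T cells (8 genes). In the NK and innate lymphoid list *Nkg7* was the largest part, and it overlapped between ages. Of the 6 tested genes of that list, 4 estimates were above and 2 below 0. Both old libraries lay above both young ones in 2, beside 16.1% of all tested genes. These were *Ncr1* (8.40 and 7.19 CPM in old, 0.0585 and 0.320 CPM in young ETP) and *Il2rb* (59.6 and 90.0 CPM in old, 8.95 and 8.01 CPM in young ETP). B cell (6 genes), erythroid (5 genes) and epithelial (5 genes) markers summed to 1.08 to 39.7 CPM in every library. *Klk1*, *Ptcra* and *Foxn1* were among the markers at 0 in all 4 libraries.

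Across the 10080 tested genes, edgeR's quasi-likelihood test called 0 genes between old and young ETP at an adjusted p under 0.05, which is 0.0% of them and includes 0 of the 9 members. At an unadjusted p under 0.05 it gave 469 genes with a higher level in old ETP (4.65%) and 92 with a lower level (0.913%), among them 2 members, *Ccnd1* and *Cdkn2c*, both with the higher level in old ETP. *Cdkn2c* passed the filter on low values through its old libraries alone, so a higher level there was a condition of its being tested, and its place in the counts here and below is no support for a direction. DESeq2 called 225 genes at an adjusted p under 0.05 (2.23%) and none of the members. Permuting the labels of 2 against 2 libraries, in an exact two-sided test, allows no p smaller than 0.333. No member is therefore said below to have risen or fallen with age, and values are given in each library.

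The members did not move as a block. Their median log2 fold change, old over young, was 0.41, with 6 estimates above and 3 below 0, beside a median of -0.03 over all tested genes, with 4699 above and 5381 below 0. The estimates below 0 belonged to *Ccnd2*, *Cdk4* and *Cdk6*, and the 4 tested inhibitors, *Cdkn2c* among them, had estimates above 0. Both old libraries lay above both young libraries in 3 members (*Ccnd1*, *Ccnd3* and *Cdkn2c*), a pattern that 16.1% of all tested genes had. Both old libraries lay below both young libraries in 2 members (*Ccnd2* and *Cdk4*), a pattern in 15.5% of all tested genes. Compared within the deeper and within the shallower libraries, old lay above young in both for 6 members (30.8% of all tested genes) and below in both for 2 (36.3%). *Cdk6* was the exception.

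**Figure D1:**
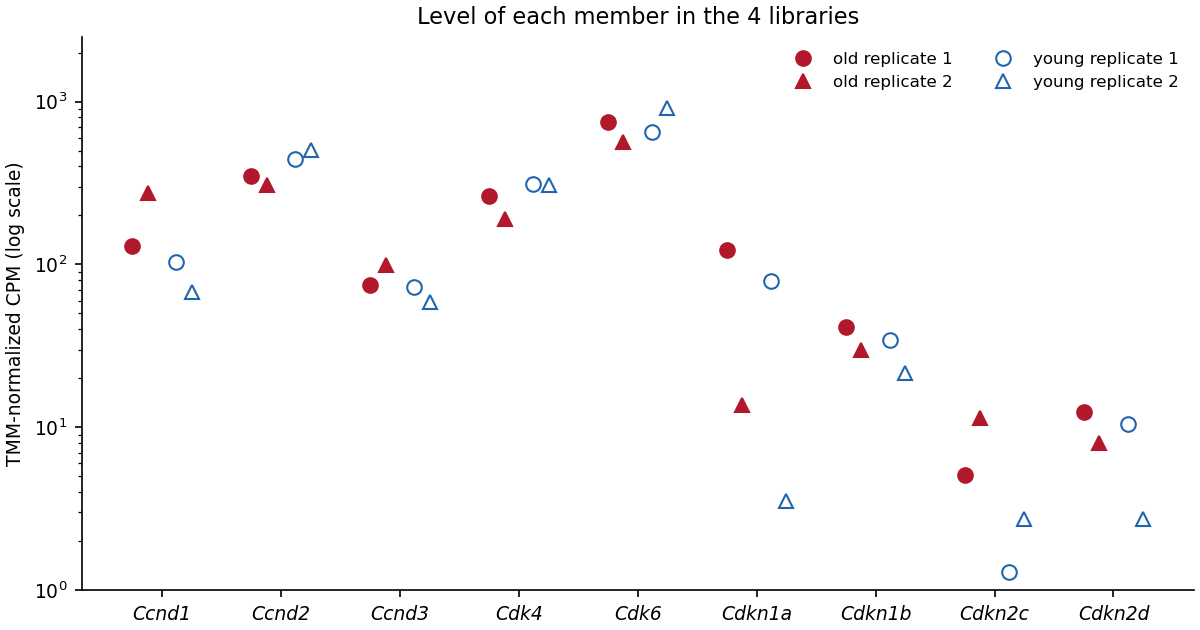
TMM-normalized CPM of the 9 tested members in each library, on a log scale. Filled red symbols are the old and open blue symbols the young libraries, circles are replicate 1 and triangles replicate 2. *Cdk6* has the highest CPM in all 4 libraries, and for *Cdkn1a* the symbols separate by replicate (122 and 78.6 CPM for the circles, 13.7 and 3.52 CPM for the triangles) rather than by age.

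Of the D cyclins, *Ccnd1* (chromosome 7, 144929931 to 144939925, minus strand, GRCm38) encodes cyclin D1, which many growth factor pathways induce. It stood at 130 and 274 CPM in old ETP (replicates 1 and 2) and at 103 and 67.3 CPM in young ETP. The ages did not overlap, although old replicate 1 lay nearer to young replicate 1 than to old replicate 2. The log2 fold change was 1.24 ± 0.45 (SE, n = 2 libraries a group), or 2.36-fold, with an edgeR p of 0.0352 and an adjusted p of 0.800. Old replicate 2 set most of it: the estimate was 0.57 without that library, and old stood at 1.26 times young within the deeper libraries and at 4.07 times within the shallower ones. The dendritic cell markers were also highest in old replicate 2, and their part in the *Ccnd1* values was not tested.

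*Ccnd2* (chromosome 6, 127125162 to 127152193, minus strand) encodes cyclin D2, which is known for driving the expansion of lymphoid progenitors. It stood at 348 and 309 CPM in old ETP and at 444 and 507 CPM in young ETP. Both old libraries were below both young ones, and libraries of the same age lay close together. Its log2 fold change was -0.53 ± 0.26 (edgeR, adjusted p = 0.999). It varied less than that of *Ccnd1* when a library was left out, from -0.63 to -0.43.

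*Ccnd3* (chromosome 17, 47505051 to 47599691, plus strand) encodes cyclin D3, which in mice is needed for the expansion of immature thymocytes after the pre-T cell receptor signals. It stood at 74.3 and 99.8 CPM in old ETP and at 72.3 and 58.8 CPM in young ETP. The ages did not overlap, but the deeper libraries of both ages were nearly level. This gave a log2 fold change of 0.41 ± 0.29 (edgeR, adjusted p = 0.999), and it was 0.15 without old replicate 2.

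Because all 3 cyclins compete for the same kinases, their shares within each library were also compared, which needs no scaling between libraries. On the FPKM scale, which allows for transcript length, *Ccnd2* made up 44.4% and 29.7% of the D cyclin sum in old ETP and 53.5% and 64.0% in young ETP. The *Ccnd1* share was 25.8% and 40.7% in old and 19.4% and 13.1% in young ETP. The *Ccnd3* share was 29.8% and 29.6% in old and 27.2% and 22.9% in young ETP. The ages did not overlap in any of these shares, which add up to the whole and so are not separate observations. In CPM, both old libraries lay above both young ones in 16.1% of all tested genes and below both in 15.5%. *Ccnd2* was the leading D cyclin in old replicate 1 and in both young libraries, whereas in old replicate 2 *Ccnd1* led. The ratio of *Ccnd1* to *Ccnd2* FPKM was 0.581 and 1.37 in old and 0.362 and 0.205 in young ETP. The summed FPKM of the D cyclins itself, 53.6 and 45.0 in old and 70.9 and 40.9 in young ETP, overlapped between ages. This sum was higher in the deeper library of each age, as was the sum of all deposited FPKM.

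**Figure D2:**
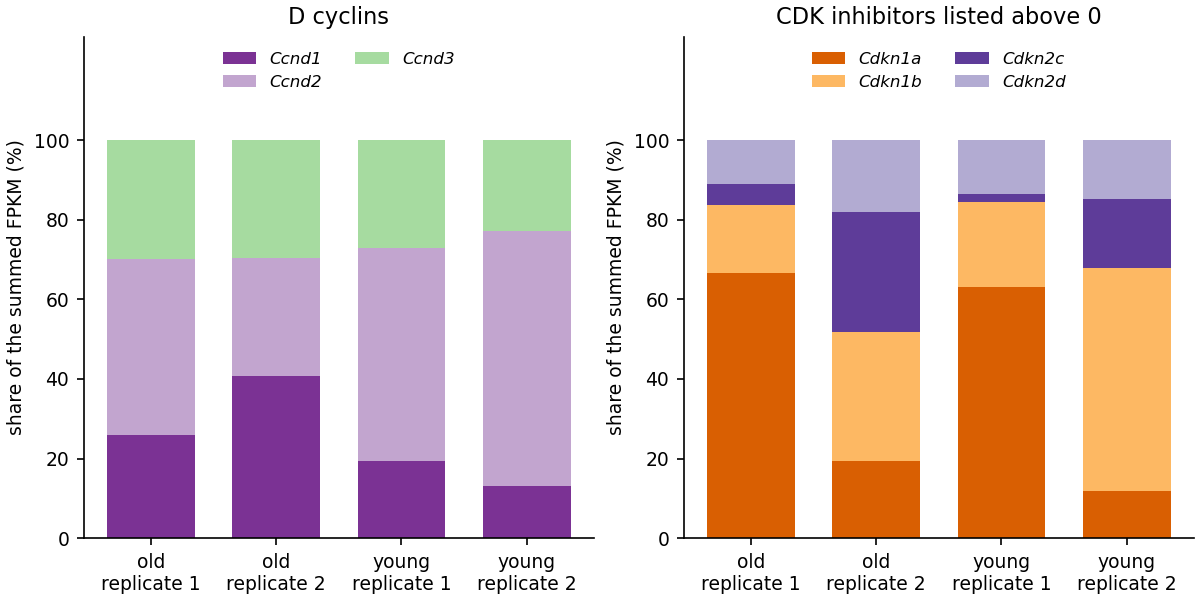
Share of each gene in the summed FPKM of the D cyclins (left) and of the CDK inhibitors listed above 0 (right), in percent, with 1 stacked bar for each library, old on the left and young on the right of each panel. The *Ccnd1* segment is larger in both old bars (25.8% and 40.7%) than in both young bars (19.4% and 13.1%), whereas the *Cdkn1a* segment is large in replicate 1 of both ages (66.6% and 63.2%) and small in replicate 2 (19.3% and 11.9%).

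Both kinases were the most abundant members. *Cdk6* (chromosome 5, 3341485 to 3531008, plus strand), the partner of D cyclins that prevails in blood progenitors, had the highest FPKM of the 10 genes in every library, with 128 and 60.3 in old and 137 and 116 in young ETP. *Cdk4* (chromosome 10, 127063534 to 127067920, plus strand) was second in every library, with 89.5 and 40.0 FPKM in old and 133 and 77.8 in young ETP. The ratio of *Cdk4* to *Cdk6* FPKM was 0.701 and 0.664 in old and 0.972 and 0.673 in young ETP, so that *Cdk6* led by the least in young replicate 1.

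*Cdk4* stood at 263 and 190 CPM in old ETP and at 311 and 309 CPM in young ETP. Both old libraries were below both young ones, which differed from each other by less than 2 CPM. Between ages the log2 fold change was -0.45 ± 0.28 (edgeR, adjusted p = 0.999), and it was -0.26 without old replicate 2. *Myc*, whose product binds the E-box that the *Cdk4* promoter holds 4 times, stood at 424 and 402 CPM in old and 503 and 527 CPM in young ETP (log2 fold change -0.32 ± 0.26, edgeR, adjusted p = 0.999). Whether these values are linked was not tested.

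*Cdk6* stood at 754 and 568 CPM in old ETP and at 646 and 911 CPM in young ETP. The ages overlapped, with both the highest and the second lowest level in young libraries. Old stood at 1.17 times young within the deeper libraries and at 0.624 times within the shallower ones. The log2 fold change was -0.24 ± 0.33 (edgeR, adjusted p = 0.999), and it was 0.034 without young replicate 2, a change of sign.

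Of the Cip and Kip inhibitors, *Cdkn1a* (chromosome 17, 29090976 to 29100727, plus strand) encodes p21, which p53 induces after DNA damage and which other stress signals raise as well. It had 1472 and 63 fragments in old ETP and 1343 and 22 in young ETP, or 122 and 13.7 CPM in old and 78.6 and 3.52 CPM in young ETP. The libraries thus separated by replicate, not by age: replicate 1 had 8.92 times the level of replicate 2 in old ETP and 22.3 times in young ETP. These gaps were far wider than counting error, with 95% Poisson intervals of 116 to 129 CPM and 10.5 to 17.6 CPM in the old libraries and 74.4 to 82.9 CPM and 2.21 to 5.34 CPM in the young ones. These intervals cover counting error only.

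Set against all genes, the *Cdkn1a* gap between libraries of an age was extreme. On log2 values with 0.5 CPM added, replicate 1 exceeded replicate 2 by 3.11 in old and by 4.30 in young ETP, and only 15 of the 10080 tested genes exceeded 3.11 in both ages. Its level in old over young was 1.56 times within the deeper and 3.89 times within the shallower libraries. The log2 fold change between ages was 0.72 ± 1.43 (edgeR, adjusted p = 0.999). It changed sign to -1.58 without old replicate 1 and to -0.20 without young replicate 2, and it was 4.27 without young replicate 1. The direction with age for *Cdkn1a* thus depended on which libraries were compared.

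**Figure D3:**
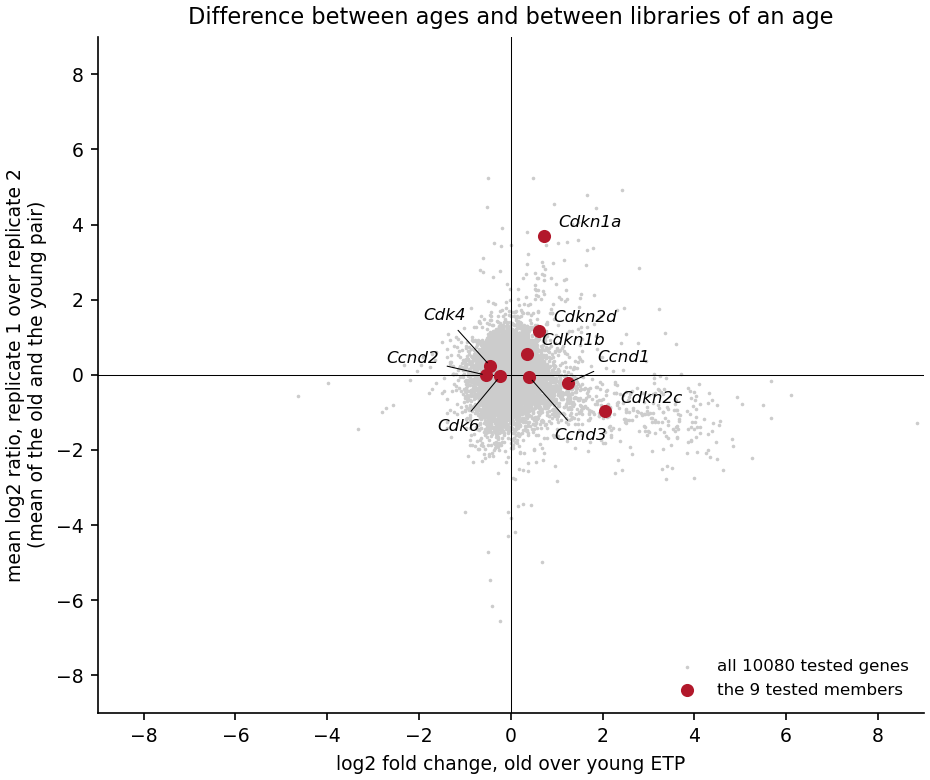
Log2 fold change between the ages (horizontal) against the mean log2 ratio of replicate 1 to replicate 2, averaged over both ages with 0.5 CPM added (vertical), for the 10080 tested genes (grey) and the 9 tested members (red). *Cdkn1a* lies at the upper edge of the cloud, near the vertical line of no difference between ages, whereas *Cdkn2c* lies to the right at a log2 fold change of 2.06.

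Genes whose profile over the 4 libraries was nearest to that of *Cdkn1a*, by the Euclidean distance of centred log2 CPM, were *Plk3*, a kinase of the stress response (51.9 and 3.92 CPM in old, 21.1 and 0.481 CPM in young ETP), *Il10*, an anti-inflammatory cytokine (10.3 and 0.436 CPM in old, 5.09 and 0 CPM in young ETP), and *Maff*, a small Maf factor (31.2 and 4.14 CPM in old, 14.5 and 0.961 CPM in young ETP). In each of them, as in *Cdkn1a*, the level was higher in replicate 1 of both ages. The distances were 0.603 to 0.723, more than those of the nearest gene of any other member, so the match was loose.

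Other targets of p53 separated less by replicate. *Bax*, which promotes apoptosis, stood at 23.1 and 10.2 CPM in old and 9.66 and 4.00 CPM in young ETP. *Btg2*, which slows division, stood at 278 and 234 CPM in old and 169 and 53.3 CPM in young ETP. Each was higher in replicate 1 of both ages, and had both old libraries above both young ones. The log2 fold changes were 1.27 ± 0.62 for *Bax* and 1.20 ± 0.55 for *Btg2* (edgeR, adjusted p = 0.999 for each). *Mdm2*, the ligase that degrades p53, stood at 240 and 171 CPM in old and 202 and 189 CPM in young ETP, and *Ccng1* at 79.8 and 169 CPM in old and 91.7 and 168 CPM in young ETP, higher in replicate 2. *Trp53* itself stood at 379 and 347 CPM in old and 416 and 436 CPM in young ETP. Of the list of 12 p53 targets, 8 were tested, of which 0 were called by edgeR or DESeq2, and 4 estimates were above and 4 below 0, with a median of 0.016. Both old libraries lay above both young ones in 3 of the 8, beside 16.1% of all tested genes, and below both in 1, beside 15.5%. At an unadjusted p under 0.05, 1 of them had a higher level in old ETP: *Sesn2*, an inhibitor of mTORC1 signalling, stood at 13.0 and 10.9 CPM in old and 5.91 and 5.77 CPM in young ETP (log2 fold change 1.03 ± 0.38, edgeR, adjusted p = 0.831).

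*Cdkn1b* (chromosome 6, 134920401 to 134925513, plus strand) encodes p27, which holds resting lymphocytes out of the cycle. It stood at 41.1 and 29.8 CPM in old ETP and at 34.3 and 21.5 CPM in young ETP. The ages overlapped, and replicate 1 was above replicate 2 in both, though by far less than in *Cdkn1a*. Its log2 fold change was 0.35 ± 0.37 (edgeR, adjusted p = 0.999), and it was 0.052 without young replicate 2. Genes that govern p27 protein gave values on the other side of 0: *Skp2*, the ligase subunit that marks p27 for destruction, stood at 43.1 and 56.0 CPM in old and 73.4 and 79.0 CPM in young ETP (log2 fold change -0.62 ± 0.27, edgeR, adjusted p = 0.977). *Cks1b*, the cofactor of this ligase, overlapped between ages, with 107 and 64.5 CPM in old and 125 and 65.2 CPM in young ETP.

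Of the INK4 inhibitors, *Cdkn2c* (chromosome 4, 109660876 to 109667189, minus strand), which encodes p18, had the largest fold difference of the members. It had 61 and 52 fragments in old ETP and 22 and 17 in young ETP, or 5.07 and 11.3 CPM in old and 1.29 and 2.72 CPM in young ETP. Both old libraries were above both young ones, and replicate 2 was the higher in each age. The log2 fold change was 2.06 ± 0.67, or 4.17-fold (n = 2 libraries a group), with an edgeR p of 0.0239 and an adjusted p of 0.710. Old stood at 3.94 times young within the deeper libraries and at 4.16 times within the shallower ones. A higher level in old ETP was a condition of its being tested, so these ratios are no support for a direction. Over the 4 fits with a library left out, the estimate ran from 1.37 to 2.64.

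Depth limited the precision of this value. The 95% Poisson interval was 3.88 to 6.51 CPM in old replicate 1 and 1.59 to 4.36 CPM in young replicate 2, so that these intervals overlapped, whereas that of old replicate 2 (8.46 to 14.9 CPM) lay above those of both young libraries. *Cdkn2c* passed the filter on low values through the old libraries alone, with 2.20 and 3.01 FPKM in old and 0.704 and 0.867 FPKM in young ETP. The order of the 4 libraries in *Cdkn2c* was also their order in the summed dendritic cell markers, highest in old replicate 2 and lowest in young replicate 1, and the part of such cells in the *Cdkn2c* values was not tested. In bulk samples, more cells that express a gene and more RNA in each of them cannot be told apart.

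Genes with a profile near that of *Cdkn2c* included *Wfdc17* (2.83 and 7.41 CPM in old, 0.702 and 1.76 CPM in young ETP) and *Pde1b*, a cyclic nucleotide phosphodiesterase (13.8 and 34.6 CPM in old, 4.27 and 7.37 CPM in young ETP). Both showed the same order of libraries as *Cdkn2c*. For *Ccnd1* the nearest profile was that of *Ctsz*, a lysosomal protease, with 44.4 and 84.3 CPM in old and 29.9 and 20.3 CPM in young ETP. Among 10080 genes and 4 libraries, near profiles are common, and no shared control is read from them.

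*Cdkn2d* (chromosome 9, 21288410 to 21291407, minus strand) encodes p19Ink4d. It had 149 and 37 fragments in old ETP and 178 and 17 in young ETP, or 12.4 and 8.06 CPM in old and 10.4 and 2.72 CPM in young ETP. The ages overlapped, and young replicate 2 stood below the other 3 libraries. Its log2 fold change was 0.61 ± 0.68 (edgeR, adjusted p = 0.999). It rested on that library, since it was -0.016 without it.

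*Cdkn2a* (chromosome 4, 89274471 to 89294653, minus strand) encodes p16Ink4a and, from another start and reading frame, Arf, which blocks MDM2. It was listed at 0 fragments in both old and in both young libraries. *Cdkn2b*, its neighbour and the gene of p15, was listed at 0 as well (chromosome 4, 89306299 to 89311039), whereas *Mtap*, on the other side of *Cdkn2a*, had 674 and 330 fragments in old and 1321 and 433 in young ETP. An entry of 0 in this table is not always an absence of RNA. *Ppp1ca* and *Rad9a*, a phosphatase and a checkpoint gene in wide use, overlap each other on chromosome 19 and were also listed at 0 in all 4 libraries, as were 6236 genes in all. From these libraries it can therefore be said only that *Cdkn2a* was listed at 0 in both ages, and no fold change or limit is given for it. The paper reports a separate qPCR measurement of *Ink4a* in ETP of several ages, which is not part of these libraries.

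**Figure D4:**
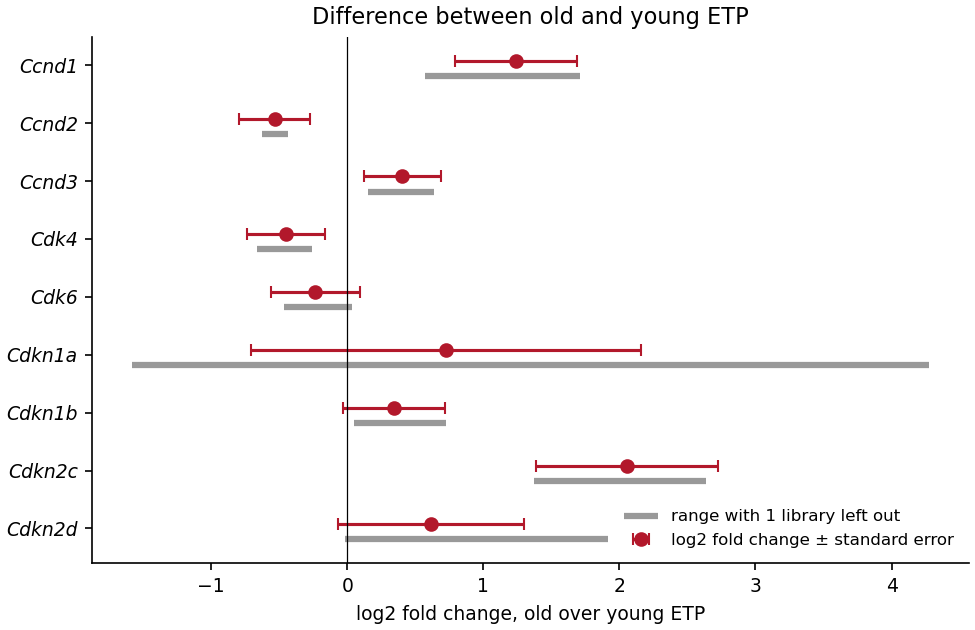
Log2 fold change of old over young ETP for the 9 tested members (red points, with bars of 1 standard error from edgeR, 2 libraries a group) and the range of the estimate when each library was left out in turn (grey bars). The grey bar of *Cdkn1a* runs from -1.58 to 4.27, and the bars of *Cdk6*, *Cdkn1a* and *Cdkn2d* cross 0. Those of *Ccnd1*, *Ccnd3*, *Cdkn1b* and *Cdkn2c* stay above 0 and those of *Ccnd2* and *Cdk4* below it.

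The order of levels within the members was compared per length, by FPKM. *Cdk6* and *Cdk4* came first and second in all 4 libraries. *Ccnd2* led *Ccnd3* in every library, by 23.8 to 15.9 FPKM in old replicate 1 and by 13.4 to 13.3 FPKM in old replicate 2, and by 37.9 to 19.3 and 26.2 to 9.37 FPKM in the young libraries. *Ccnd1* and *Ccnd3* changed places between libraries, with *Ccnd1* at 13.8 and 18.4 FPKM in old and 13.7 and 5.38 FPKM in young ETP, and were not separated beyond that spread. *Cdkn1a* had no fixed place, at 27.6 and 1.93 FPKM in old and 22.3 and 0.593 FPKM in young ETP, and was above every D cyclin in old replicate 1 only. *Cdkn1b*, with 7.16 and 3.26 FPKM in old and 7.49 and 2.80 FPKM in young ETP, lay above *Cdkn2c* and *Cdkn2d* in all libraries. *Cdkn2d*, with 4.52 and 1.82 FPKM in old and 4.79 and 0.734 FPKM in young ETP, and *Cdkn2c* changed places.

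The inhibitors listed above 0 summed to 41.5 and 10.02 FPKM in old and to 35.2 and 4.996 FPKM in young ETP. *Cdkn1a* supplied most of this sum in replicate 1 of both ages, and *Cdkn1b* was the largest part in replicate 2 of both ages, with 32.5% in old and 56.1% in young ETP. In each library, *Cdk4* and *Cdk6* together had more FPKM than all inhibitors, at 217 and 100.4 in old and 270.0 and 193 in young ETP.

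The rest of the pathway was described from lists of genes around the members. Of 9 other cyclins and kinases of G1 and S phase entry, all were tested, edgeR and DESeq2 called 0, 0 had an unadjusted p under 0.05, and 8 estimates were below and 1 above 0, with a median of -0.26. *Ccne2*, a cyclin of the G1 to S transition, had the largest, -0.64 ± 0.60 (edgeR, adjusted p = 0.999), with 8.81 and 24.0 CPM in old and 17.3 and 33.3 CPM in young ETP, and *Ccnh*, a subunit of the kinase that activates CDKs, followed at -0.50 ± 0.28 (edgeR, adjusted p = 0.999), with 29.2 and 30.1 CPM in old and 40.4 and 43.1 CPM in young ETP. Of these 9, 1 (*Ccnh*) had both old libraries below both young ones, and 0 had both above, patterns that 15.5% and 16.1% of all tested genes had. Of 3 other CDK inhibitors, *Cdkn3*, a phosphatase that acts on CDKs, was tested and stood at 3.24 and 3.49 CPM in old and 3.39 and 1.28 CPM in young ETP, *Cdkn2b* was listed at 0, and *Cdkn1c* had 8 and 0 fragments in old and 8 and 2 in young ETP.

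The 10 pocket proteins and E2F partners were all tested, with 0 called by edgeR or DESeq2, 0 at an unadjusted p under 0.05, 4 estimates above and 6 below 0 and a median of -0.14. *E2f2* had an estimate of 0.74 ± 0.43 (edgeR, adjusted p = 0.999), with 20.5 and 36.2 CPM in old and 20.4 and 13.3 CPM in young ETP. *Tfdp2*, a dimer partner of E2F, had -0.68 ± 0.32 (edgeR, adjusted p = 0.999), with 130 and 137 CPM in old and 163 and 265 CPM in young ETP. *Rb1*, the retinoblastoma gene, was at 49.8 and 133 CPM in old and 52.8 and 123 CPM in young ETP, so that it too separated by replicate, in the direction opposite to *Cdkn1a*.

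Of 14 regulators of the inhibitors, all tested, with 0 called by edgeR or DESeq2 and 0 at an unadjusted p under 0.05, 9 estimates were below and 5 above 0, with a median of -0.24, and both old libraries lay below both young ones in 7, a pattern in 15.5% of all tested genes. These include subunits of the Polycomb complexes, which keep the *Cdkn2a* locus silent in dividing cells. *Ezh2*, the methyltransferase of the second complex, stood at 140 and 161 CPM in old and 229 and 228 CPM in young ETP (log2 fold change -0.60 ± 0.25, edgeR, adjusted p = 0.954). *Bmi1*, of the first complex, stood at 50.3 and 61.2 CPM in old and 72.6 and 93.1 CPM in young ETP (-0.57 ± 0.28, edgeR, adjusted p = 0.999). *Cbx7*, of the first complex too, had the largest estimate above 0, at 0.82 ± 0.43 (edgeR, adjusted p = 0.999), with 15.1 and 23.5 CPM in old and 8.66 and 13.3 CPM in young ETP, and *Cul4b*, a ubiquitin ligase scaffold, the largest below 0, at -0.76 ± 0.63 (edgeR, adjusted p = 0.999).

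Genes that act after the G1 decision had estimates on a single side of 0. All 14 S phase genes had estimates below 0, with a median of -0.45 beside -0.03 over all tested genes, and both old libraries lay below both young ones in 6 of them, a pattern in 15.5% of all tested genes. Of the 14, 0 were called by edgeR or DESeq2 at an adjusted p under 0.05, and 1 had an unadjusted p under 0.05 in edgeR with a lower level in old ETP, beside 0.913% of all tested genes. *Mcm4*, a subunit of the replicative helicase, stood at 272 and 207 CPM in old and 380 and 359 CPM in young ETP (log2 fold change -0.62 ± 0.28, edgeR, adjusted p = 0.977). All 12 G2 and M phase genes also had estimates below 0 (median -0.34, 0 called by edgeR or DESeq2 and 0 at an unadjusted p under 0.05), but both old libraries lay below both young ones in 1 of them (15.5% of all tested genes). Young replicate 1 had the highest level of each of these genes except *Mki67*. Within the shallower libraries, old lay below young in *Top2a*, *Ccnb1*, *Cdk1* and *Aurkb* and above it in the rest of this list. *Top2a*, topoisomerase of dividing cells, stood at 370 and 363 CPM in old and 780 and 448 CPM in young ETP (-0.74 ± 0.35, edgeR, adjusted p = 0.999), whereas *Mki67*, the proliferation antigen, overlapped, with 353 and 1045 CPM in old and 981 and 868 CPM in young ETP. *Aurkb*, a kinase of chromosome segregation, had -0.51 ± 0.51 (edgeR, adjusted p = 0.999). Genes of these lists are transcribed together in cycling cells and are not independent of one another.

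Exons of 6 of the 10 members overlap those of another annotated gene, and no source used here tells if reads were counted by strand. The overlapping genes are *LTO1* for *Ccnd1*, *Bysl* for *Ccnd3*, *Tspan31* for *Cdk4*, and noncoding or uncharacterized genes for *Ccnd2*, *Cdk6* and *Cdkn1a*, so that a part of their fragments may belong to the partner. *Ccnd3* also has a pseudogene, and its fragment numbers were not whole. *Cdkn1b*, *Cdkn2a*, *Cdkn2c* and *Cdkn2d* have no such overlap.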

How the data were processed

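Libraries of ETP RNA were built with a Nugen Ovation kit and read from both ends on an Illumina HiSeq. The authors used STAR 2.3.0 for alignment to GRCm38 (mm10). The submitters' processing notes list HTSeq 0.5.4p3, DESeq 1.12.1, Cuffdiff and Cufflinks 2.1.1. The deposited table, laid out like the output of Cuffdiff by replicate, holds estimated counts of fragments for each gene (95.7% to 96.1% of values whole within 1e-06), a scaled signal that the authors made from them with 1 factor for each library (0.824 and 1.37 in old, 0.723 and 1.20 in young ETP), and FPKM. The deposited FPKM kept a difference in depth and summed to 230420 and 122998 in old and 281542 and 135313 in young ETP. The treatment of strand and of multiple alignments was not given in the sources used here.

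Estimated counts were rounded, scaled by TMM and compared with edgeR 4.0.16 (quasi-likelihood, age as the only term, both ages) in R 4.3.3. P-values were adjusted by Benjamini-Hochberg over the 10080 genes that reached an FPKM of 1 in 2 or more libraries, at a threshold of 0.05, and standard errors are the fold change divided by the root of F. DESeq2 1.42.0 and limma 3.58.1 gave alternatives, as did other filters and scalings and leaving out each library. FPKM served levels between genes, and levels of untested genes use the same scaling. The libraries held 11816480 and 4839341 (old) and 16658865 and 6414917 (young) fragments. Poisson intervals (95%) and the limit of 3 counts cover counting error only, since PCR copies of a molecule are not independent. Chi-square per gene was 83.2 between the old and 70.9 between the young libraries, so that none looked like a copy of another.

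The members and lists were chosen with earlier results of these data known. Named were all 10 members, from each list the genes with an unadjusted p under 0.05 or else the 2 with the largest estimates, and genes among the 3 nearest profiles of a member. Some genes that this rule names are not reported here. Other genes of the lists were named after their values were seen, as were *Kit*, *Cd209a*, *Nkg7*, *Ncr1*, *Il2rb*, *Mtap*, *Ppp1ca* and *Rad9a*. Coordinates are those of GENCODE for GRCm38, and promoters those of RefSeq.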

Additional observations from a re-analysis of the deposited data

How the results depend on the processing

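Of the 99 member values under an alternative, 90 kept their direction and their side of the threshold of 0.05, 5 passed it and 4 changed sign, all 4 with a library left out. In all 4, young replicate 2 or old replicate 1 was the missing library. The log2 fold changes ran, with each library left out in turn, from -0.46 to 0.034 for *Cdk6*, from -1.58 to 4.27 for *Cdkn1a* and from -0.016 to 1.91 for *Cdkn2d*. The count of all genes called (0 in edgeR) was 225 with DESeq2 (210 higher and 15 lower in old ETP), 508 without a filter on low values (474 higher and 34 lower) and 0 to 221 with a library left out, the 221 without old replicate 1. The lone library of an age is then assumed to vary like the other age. Without the filter, 1 member was called, *Ccnd1* (adjusted p = 0.0344). The median log2 fold change of the members, 0.41, ran from 0.034 without young replicate 2 to 0.73 without young replicate 1, while that of all genes stayed within 0.1 of its value. On the log2(FPKM + 1) scale the median of all genes was -0.27 and that of the members 0.10. The replicate numbers pair the libraries only by name: with 2 pairs and no label that ties them, the pairing is not established, although deviations from the age mean correlated at 0.73 across genes. With the replicate block, edgeR called 777 genes (578 higher and 199 lower in old ETP) and 4 members, *Ccnd1* (adjusted p = 0.0395), *Ccnd2* (0.0438), *Cdkn1a* (0.0359) and *Cdkn2c* (0.0103). Low counts limit *Cdkn2c*, *Cdkn2d* and *Cdkn1a*, each with under 100 fragments in at least 1 library. For *Cdkn1a* the gap between libraries of an age was wider than counting error.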
